A study of Mus musculus with 15 samples.

Results

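The insulin-like growth factor (IGF) axis of mouse small intestinal organoids was examined at the level of poly-A RNA in 8 genes. These were the 6 binding protein genes Igfbp2, Igfbp3, Igfbp4, Igfbp5, Igfbp6 and Igfbp7, the IGF1 receptor gene Igf1r and the insulin receptor gene Insr. These members of the axis were picked by gene symbol from the 78298 genes of the count files, and the set was chosen because Igfbp4 is among the largest falls in budding organoids that overexpress SOX9. Each of 5 conditions had 3 libraries. The control line carried a lentiviral L30prom_V5-Halo-GDGAGLIN-NLS_IRES_Puro transgene (Halo-NLS), in which a weak ubiquitous promoter drives the HaloTag with a nuclear localization sequence. The other lines carried Sox9 fused to a tag behind the same L30 promoter and puromycin resistance, tagged with Halo-V5 in one and mEGFP-V5 in the other, and each was sequenced while budding and after it had become spheroids. The SOX9-Halo spheroids additionally carried an H2B-mEGFP transgene with Zeocin resistance and the SOX9-mEGFP spheroids an H2B-mScarletI transgene with neomycin resistance, which no budding library carried. The organoids came from crypts of adult female mice of C57BL/6J background, each line was made by transduction and antibiotic selection, and the replicates were samples of the same line. Halo-NLS and SOX9-mEGFP_budding had been cultured equally long. SOX9-Halo_budding came later in the authors' order by time in culture, so by this order it also differed from both in that time. The spheroids were sequenced after much longer culture, so that morphology, time in culture and the second transgene cannot be told apart. Both kinds of spheroids also differed in tag, in the second transgene with its selection and, by the authors' order, in time in culture. A difference between them thus cannot be assigned to any of these alone.

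IGF1 and IGF2 are secreted growth factors that signal through the receptor tyrosine kinase IGF1R, and insulin signals through the related INSR, both of which feed into the PI3K, AKT and mTOR pathway. IGF binding proteins are secreted proteins that hold IGFs in the extracellular space and can either withhold them from the receptor or deliver them to it, and secreted proteases release the IGF by cutting the binding protein. In the intestine, the ligands come largely from mesenchymal cells and from the circulation, while epithelial cells carry the receptors.

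The libraries held between 28062722 and 40559766 counts on genes. The 6 listed epithelial markers (Epcam, Cdh1, Krt8, Krt18, Cldn7 and Vil1) had more than 3 counts in every library and summed to 4879 to 10013 CPM (counts scaled by library size), whereas 8 fibroblast markers summed to at most 3.37 CPM. Sox9 had a normalized count of 305 to 769 in Halo-NLS and 6487 to 23654 in all SOX9 libraries except SOX9-Halo_budding replicate 1, in which it was 1336. Counts cannot tell endogenous Sox9 RNA from that of the transgene. Halo-NLS replicate 3 stood apart, with 40375 genes detected against a median of 28352, so fold changes of the members against Halo-NLS are also given without it.

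All members are protein-coding genes, and the positions given here are those of GENCODE M39 on GRCm39, the build to which the authors aligned (mm39). Igfbp4 lies at chr11:98932064-98945218 on the plus strand, with Top2a 17002 bases to its left and Tns4 11286 bases to its right. Igfbp2 (chr1:72863606-72891634, plus strand) and Igfbp5 (chr1:72897091-72914043, minus strand) are neighbours whose 3′ ends face each other across 5457 bases. Igfbp3 (chr11:7156086-7164179, minus strand) has Igfbp1 as its neighbour at a distance of 3540 bases. Igf1r lies at chr7:67601518-67883416 on the plus strand, Insr at chr8:3172061-3329647 on the minus strand, Igfbp6 at chr15:102052697-102057953 on the plus strand and Igfbp7 at chr5:77493130-77555931 on the minus strand. The counting ignored strand, so reads on the stretches that Igfbp3, Igfbp6, Igfbp7, Igf1r and Insr share with genes of the opposite strand could not be assigned by strand. Igfbp2, Igfbp4 and Igfbp5 overlap no other annotated gene.

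The 250 bases before the outermost annotated start are shown for Igfbp4, by which the set was chosen, and for the neighbours Igfbp2 and Igfbp5, whose levels ran against each other. They are written 5′ to 3′ on the strand of the gene and were read from GRCm39 at chr11:98931814-98932063 (plus), chr1:72863356-72863605 (plus) and chr1:72914044-72914293 (minus). Capitals mark the motifs found among 5 that were searched on both strands.
Igfbp4: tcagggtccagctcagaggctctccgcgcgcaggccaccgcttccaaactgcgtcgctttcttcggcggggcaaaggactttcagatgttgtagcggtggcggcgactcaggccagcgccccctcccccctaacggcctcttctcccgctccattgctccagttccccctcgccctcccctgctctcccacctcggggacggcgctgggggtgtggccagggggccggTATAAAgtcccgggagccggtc
Igfbp2: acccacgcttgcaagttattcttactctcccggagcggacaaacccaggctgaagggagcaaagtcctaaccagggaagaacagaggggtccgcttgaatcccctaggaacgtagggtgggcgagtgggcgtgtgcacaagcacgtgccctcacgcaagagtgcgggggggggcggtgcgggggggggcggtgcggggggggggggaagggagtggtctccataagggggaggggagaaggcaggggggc
Igfbp5: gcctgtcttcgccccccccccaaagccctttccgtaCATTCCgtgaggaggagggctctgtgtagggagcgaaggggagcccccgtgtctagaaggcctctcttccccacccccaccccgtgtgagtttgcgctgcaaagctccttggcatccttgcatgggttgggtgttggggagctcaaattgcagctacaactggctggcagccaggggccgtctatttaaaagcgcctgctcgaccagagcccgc
In Igfbp4 the capitals are a TATA box, searched for as the letters TATAAA, which ends 17 bases before the start, and 12.5% of the 21723 windows of the same length before protein-coding genes held these letters. In Igfbp5 the capitals are the reverse complement of the motif of TEAD factors, searched for as GGAATG, from 214 to 209 bases before the start, and 12.4% of windows held it. The core of SOX motifs, searched for as ACAAT, was found in the windows of Igf1r and Igfbp6 and in 28.9% of all windows. The AP-1 motif, searched for as TGANTCA, was found in no member and in 6.47% of windows. The TCF/LEF motif, searched for as ATCAAAG, was found in no member and in 3.18% of windows. A further TATA box was found before Igfbp6, and neither match shown overlaps one of another motif. The windows of Igfbp2 and Igfbp3 held none of the 5, which says only that these letters were not there. The GC content was 68.4% in the window of Igfbp4, 66% in that of Igfbp2, 62% in that of Igfbp5 and 54.8% in that of Igfbp3, against a median of 51.2% over all windows.

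Levels are given as normalized counts, which are counts divided by the library size after TMM scaling and multiplied by the mean scaled library size. Fold changes are on the log2 scale from 1 edgeR quasi-likelihood fit to all 15 libraries, with standard errors (SE). A gene was called at a Benjamini-Hochberg adjusted p of at most 0.01 over the 17560 genes tested, a log2 fold change of 1 or more in size and, averaged over the 15 libraries, at least 10 normalized counts. The replicates were not stated to come from separate animals, so each p measures the spread between samples of a line. Of the 8 members, 6 passed the filter on low counts. Igfbp5 passed it only through the spheroid libraries and Igfbp2 only through Halo-NLS and the budding libraries. Igfbp3, with 0 to 25 raw counts outside spheroids, was near the limit of the filter there and was treated like Igfbp5. Igfbp6 and Igfbp7 did not pass. In bulk RNA, fewer cells of a type and less RNA per cell cannot be told apart.

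**Figure D1:**
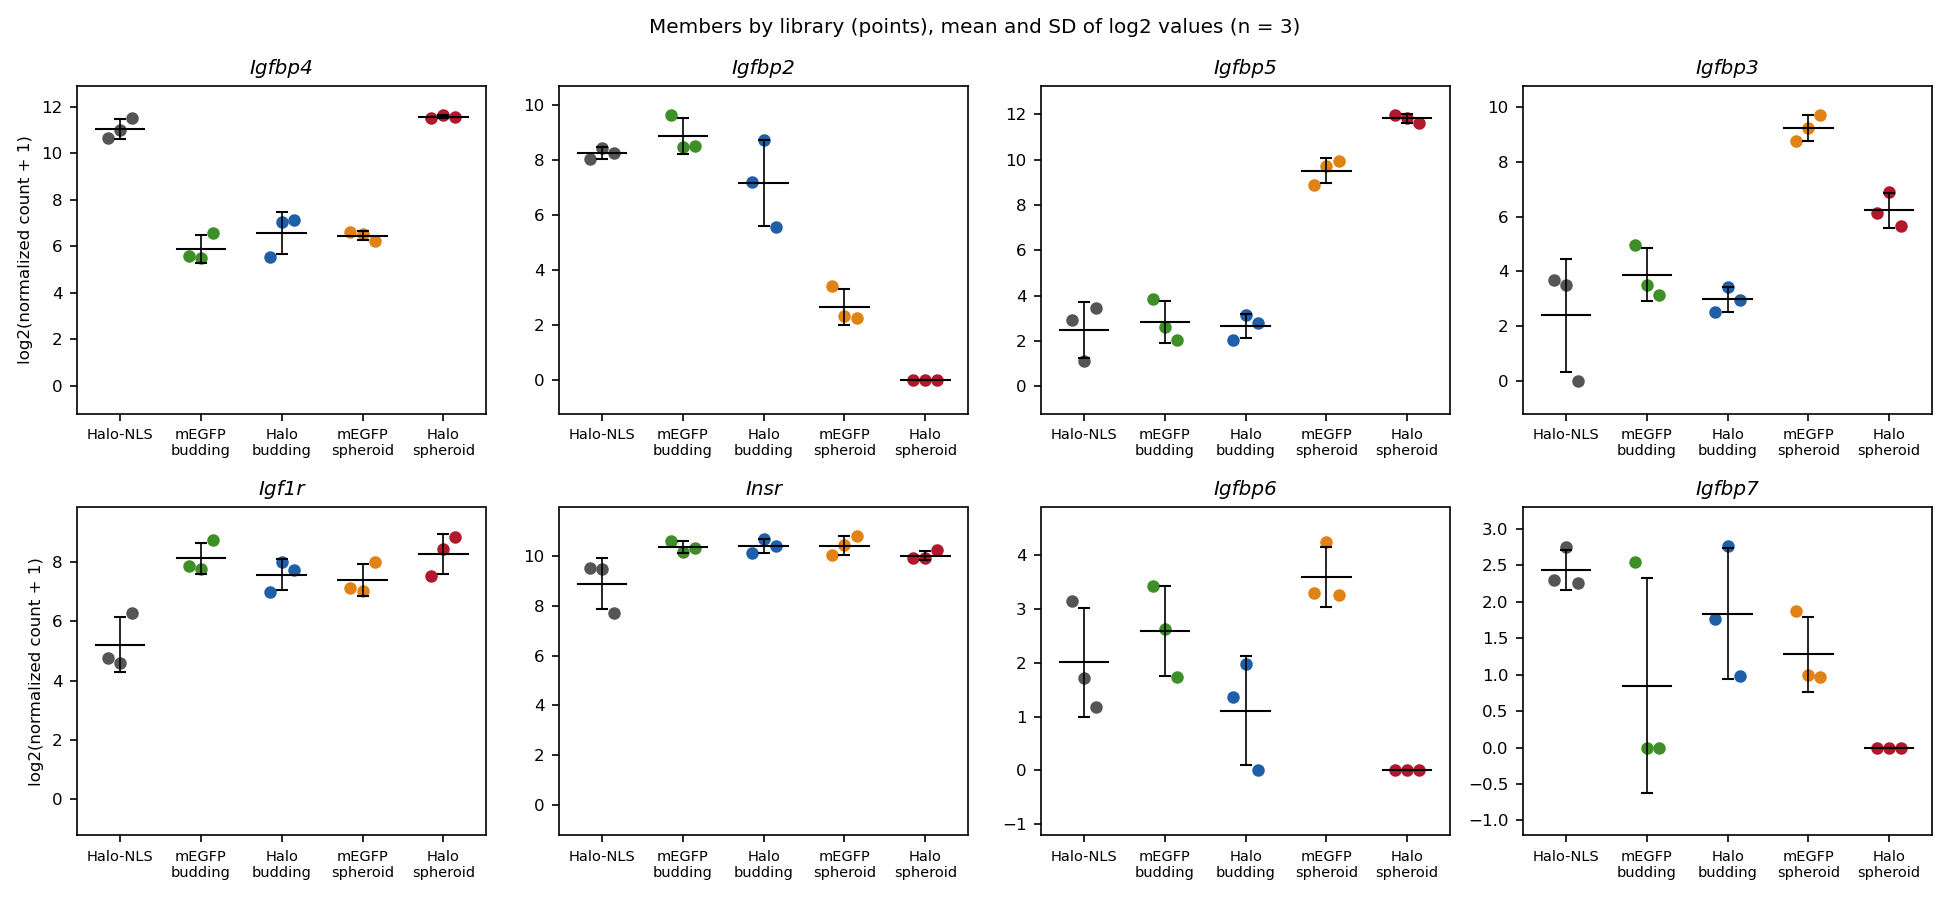
Normalized counts of the 8 members in each library on a log2(count + 1) axis, by condition, with the mean and SD of the log2 values (n = 3 per condition); the scale differs between panels. Igfbp4 is high in Halo-NLS and SOX9-Halo_spheroid only, Igfbp2 is lost in both kinds of spheroids (at 0 in SOX9-Halo_spheroid), and Igfbp5 and Igfbp3 are high only in spheroids.

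Igfbp4, whose product binds both IGFs and is mostly described as an inhibitor of their action, had normalized counts of 1611, 2022 and 2940 in Halo-NLS. In SOX9-mEGFP_budding the counts were 47.4, 43.6 and 94.99, and in SOX9-Halo_budding they were 45.3, 129 and 140. No budding SOX9 library came near the control libraries. The means were 35.3-fold (log2 fold change of -5.13, SE 0.44) and 20.9-fold (-4.39, SE 0.42) below that of Halo-NLS. These are the values on which the set was chosen, so they are given without a test. Ordered by log2 fold change, Igfbp4 was number 22 of 134 genes called lower in SOX9-mEGFP_budding and number 3 of 221 in SOX9-Halo_budding, and number 12 and 2 among the 11054 genes whose normalized counts averaged at least 100. Without Halo-NLS replicate 3 the log2 fold changes were -4.85 and -4.12, and without SOX9-Halo_budding replicate 1 the latter was -4.03. Both comparisons share the control libraries. Over all genes tested, 1.99% were called higher and 0.763% lower in SOX9-mEGFP_budding against Halo-NLS, and 2.49% higher and 1.26% lower in SOX9-Halo_budding against Halo-NLS, from which nothing is read about the members.

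In spheroids, the level of Igfbp4 differed between the lines, which also differed there in second transgene and time in culture. It was 95.8, 92.1 and 74.3 in SOX9-mEGFP_spheroid, within the range of the budding SOX9 libraries, but 2938, 3227 and 2971 in SOX9-Halo_spheroid. The lowest SOX9-Halo spheroid library was thus above 2 of the 3 Halo-NLS libraries, while Sox9 itself overlapped between both kinds of spheroids (10522 to 14834 in SOX9-Halo_spheroid and 8726 to 23654 in SOX9-mEGFP_spheroid). This comparison used no library on which Igfbp4 was chosen. Igfbp4 was 34.8-fold higher in SOX9-Halo_spheroid, with a log2 fold change of 5.12 (SE 0.43, edgeR adjusted p = 7.15e-07). Against Halo-NLS, the log2 fold change was -4.65 (SE 0.43) in SOX9-mEGFP_spheroid and 0.47 (SE 0.36) in SOX9-Halo_spheroid. From budding to spheroid it was 0.48 (SE 0.39) in the SOX9-mEGFP line and 4.87 (SE 0.43) in the SOX9-Halo line, a difference of 4.38 (SE 0.55) between the lines. Those 5 values rest in part on the libraries used for the choice and carry no test. In the order of levels, Halo-NLS and SOX9-Halo_spheroid overlapped at the top, and the other 3 conditions overlapped at the bottom.

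Igfbp5 encodes a binding protein that attaches to extracellular matrix, and its RNA was nearly absent outside spheroids. Its normalized counts were 6.5, 1.1 and 10.1 in Halo-NLS and between 3.1 and 13.4 in the 6 budding SOX9 libraries. They were 476, 848 and 979 in SOX9-mEGFP_spheroid and 4088, 3733 and 3164 in SOX9-Halo_spheroid. Every spheroid library lay above every other library, and the lines did not overlap. Against the budding organoids of the same line, the log2 fold change was 6.80 (SE 0.53) for SOX9-mEGFP and 9.35 (SE 0.58) for SOX9-Halo. Against Halo-NLS it was 7.02 (SE 0.55) in SOX9-mEGFP_spheroid and 9.27 (SE 0.58) in SOX9-Halo_spheroid, or 7.65 and 9.90 without Halo-NLS replicate 3. As Igfbp5 passed the filter only through the spheroids, these 4 fold changes are a description and carry no p. Between spheroids, Igfbp5 was 4.77-fold higher in the SOX9-Halo line (log2 fold change of 2.25, SE 0.40, edgeR adjusted p = 6.05e-04). The fold change from budding to spheroid was larger in the SOX9-Halo line by 2.55 on the log2 scale (SE 0.75), which was not called (edgeR adjusted p = 0.0354). This difference was called with DESeq2 (2.58, SE 0.71, adjusted p = 0.0038) and without the low-count filter (2.56, SE 0.58, adjusted p = 0.00041), but was 1.82 (SE 0.80, adjusted p = 0.19) without SOX9-mEGFP_budding replicate 1 and 2.24 (SE 0.79, adjusted p = 0.098) without SOX9-Halo_budding replicate 1.

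Igfbp3, the main carrier of IGFs in blood, was also high only in spheroids but in the opposite order of the lines. Normalized counts were 0 to 11.8 in Halo-NLS, 7.8 to 30.4 in SOX9-mEGFP_budding and 4.8 to 9.7 in SOX9-Halo_budding. They were 433, 607 and 831 in SOX9-mEGFP_spheroid and 68.7, 119 and 49.5 in SOX9-Halo_spheroid, without overlap between any spheroid and any other library or between both kinds of spheroids. From budding to spheroid, Igfbp3 had a log2 fold change of 5.31 (SE 0.66) in the SOX9-mEGFP line and 3.47 (SE 0.66) in the SOX9-Halo line. The difference between these changes was -1.84 (SE 0.91, edgeR adjusted p = 0.241). Against Halo-NLS, its log2 fold change was 6.38 (SE 0.72) in SOX9-mEGFP_spheroid and 3.40 (SE 0.68) in SOX9-Halo_spheroid, or 5.81 and 2.83 without Halo-NLS replicate 3. Like those of Igfbp5, the fold changes of spheroids against budding organoids and against Halo-NLS carry no p. Between spheroids, Igfbp3 was lower in the SOX9-Halo line by a log2 fold change of -2.98 (SE 0.58, edgeR adjusted p = 0.0013), and this call was lost without SOX9-Halo_spheroid replicate 3 (-2.74, SE 0.68, adjusted p = 0.011). Its neighbour Igfbp1 had at most 6.3 normalized counts in any library.

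Igfbp2 encodes a binding protein with a preference for IGF2. Its normalized counts were 263, 349 and 308 in Halo-NLS, 785, 354 and 364 in SOX9-mEGFP_budding and 146, 419 and 46.8 in SOX9-Halo_budding. The budding SOX9-Halo libraries thus spread widely and overlapped both other groups. In SOX9-mEGFP_spheroid, 9.8, 4.0 and 3.8 were left, and the 3 SOX9-Halo_spheroid libraries had no read. The log2 fold change was -6.37 from budding to spheroid in the SOX9-mEGFP line (SE 0.80). In the SOX9-Halo line the level was at least 67.3-fold lower in spheroids than in budding organoids, with 3 counts per library taken as what a count of 0 allows. Without SOX9-Halo_budding replicate 2, which held the highest count, the bound was 31.7-fold. Against Halo-NLS, Igfbp2 was at least 101-fold lower in SOX9-Halo_spheroid and 52.3-fold lower in SOX9-mEGFP_spheroid. Without Halo-NLS replicate 3 the bound was again 101-fold, and the log2 fold change in SOX9-mEGFP_spheroid was -5.66. As Igfbp2 passed the filter only through Halo-NLS and the budding libraries, where it was high, its falls in spheroids against these carry no p. Between spheroids Igfbp2 was at least 1.93-fold lower in the SOX9-Halo line, which was not called (edgeR adjusted p = 0.0422) but was with DESeq2 (adjusted p = 0.0025) and without the low-count filter (adjusted p = 1.4e-05).

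Markers of epithelial cell types were examined beside these levels, and the lists did not move alike. From budding to spheroid, 7.88% of all genes were called lower in the SOX9-mEGFP line and 14.7% in the SOX9-Halo line. Markers nearly without reads in spheroids passed the filter only through the other libraries, so their calls carry no weight. Among them were Gip, Cck, Neurod1 and Ang4, with at most 7 raw counts in any spheroid library. The 6 enteroendocrine markers (Chga, Chgb, Neurod1, Neurog3, Gip and Cck) summed to 403 to 1126 CPM in Halo-NLS and 245 to 1053 CPM over the budding SOX9 libraries, but to 0.82 to 3.15 CPM in SOX9-mEGFP_spheroid and 0.25 to 0.53 CPM in SOX9-Halo_spheroid, and 6 of 6 were called lower from budding to spheroid in both lines. The 5 goblet markers (Muc2, Tff3, Fcgbp, Clca1 and Spdef) summed to 2051 to 7915 CPM in Halo-NLS, 3364 to 8796 CPM in SOX9-mEGFP_budding and 1536 to 7646 CPM in SOX9-Halo_budding. They were at 1916 to 3358 CPM in SOX9-mEGFP_spheroid, with 1 of 5 called lower against budding organoids, and at 19.6 to 26.7 CPM in SOX9-Halo_spheroid, with 5 of 5 called lower. The 5 Paneth markers (Lyz1, Defa17, Defa24, Mmp7 and Ang4) summed to 1004 to 1360 CPM in Halo-NLS, 994 to 1530 CPM in SOX9-mEGFP_budding and 548 to 659 CPM in SOX9-Halo_budding. In SOX9-Halo_spheroid they were at 0.95 to 1.45 CPM, with 5 of 5 called lower. In SOX9-mEGFP_spheroid the sum was 1117 to 1355 CPM, but nearly all of it was Mmp7, a matrix metalloprotease, which was called higher (a mean of 41826 normalized counts against 1092 in budding organoids). The other 4 were called lower there, among them Lyz1 (465 against 18784) and Defa24 (115 against 15557). The 6 stem cell markers (Lgr5, Olfm4, Ascl2, Smoc2, Axin2 and Tnfrsf19) summed to 177 to 1057 CPM over Halo-NLS and budding libraries, to 98.7 to 164 CPM in SOX9-mEGFP_spheroid and to 165 to 199 CPM in SOX9-Halo_spheroid. From budding to spheroid, 0 were called higher and 2 lower in the SOX9-mEGFP line. In the SOX9-Halo line, 1 was called higher and 3 lower. Of all genes, 8.55% and 10.5% were called higher in these lines. In the SOX9-Halo line, Tnfrsf19 rose from 6.4 to 36.1 normalized counts in budding organoids to 1688 to 2274 in spheroids. Smoc2 fell there from 7445 to 10176 to 233 to 411, and Olfm4 from 363 to 4592 to 3.6 to 9.9. The part of these cell types in the levels of Igfbp2 and the other members was not tested.

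Lists of stromal and blood cells were measured beside Igfbp5 and Igfbp3, and some of their genes were higher in spheroids. The immune list (Ptprc, Cd68, Csf1r, Cd3e and Cd79a) summed to 1.03 to 3.82 CPM over Halo-NLS and budding libraries, to 5.82 to 11.2 CPM in SOX9-mEGFP_spheroid and to 3.41 to 8.15 CPM in SOX9-Halo_spheroid. Its 2 tested genes, Cd68 and Csf1r, were called higher from budding to spheroid in the SOX9-mEGFP line and Cd68 in the SOX9-Halo line, whereas Ptprc, which marks blood cells in general, had at most 5.0 normalized counts in any spheroid library. The smooth muscle and pericyte list (Acta2, Myh11, Des, Tagln and Rgs5) summed to 0.21 to 0.96 CPM over Halo-NLS and budding libraries, 0.54 to 0.90 CPM in SOX9-mEGFP_spheroid and 1.31 to 2.15 CPM in SOX9-Halo_spheroid, where Des was called higher (a mean of 44.8 normalized counts against 0.53 in budding organoids). Des passed the filter only through SOX9-Halo_spheroid, so this call carries no weight. From budding to spheroid, 8.55% of all genes were called higher in the SOX9-mEGFP line and 10.5% in the SOX9-Halo line. The fibroblast list (Col1a1, Col1a2, Col3a1, Dcn, Lum, Pdgfra, Pdgfrb and Thy1) summed to 0.66 to 3.37 CPM over Halo-NLS and budding libraries and 0.32 to 1.48 CPM in spheroids, and the endothelial list (Pecam1, Cdh5, Kdr, Tek and Emcn) to 0.38 to 1.57 CPM and 0.0353 to 0.179 CPM. Of the 8 fibroblast markers, 2 were at 0 in all SOX9-mEGFP_spheroid libraries and 4 in all SOX9-Halo_spheroid libraries. The part of such cells in the levels of Igfbp5 and Igfbp3 was not tested.

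The remaining binding proteins were hardly detected. Igfbp6, whose product binds IGF2 in preference to IGF1, had raw counts of 10, 18 and 9 in SOX9-mEGFP_spheroid, 0 in all 3 SOX9-Halo_spheroid libraries and 0 to 8 in the others. Igfbp7, a secreted protein with low affinity for IGFs, had 0 to 6 raw counts everywhere and 0 in all 3 SOX9-Halo_spheroid libraries. A raw count of 0 allows up to 3 counts, so neither gene can be compared at this depth.

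To compare the binding proteins with each other, counts were divided by exon length (RPKM, the CPM per kilobase of exon). The sum over the 6 genes was 19.4 ± 4.71 RPKM (SD, n = 3) in Halo-NLS, 7.90 ± 3.66 in SOX9-mEGFP_budding, 3.77 ± 2.91 in SOX9-Halo_budding, 9.96 ± 2.81 in SOX9-mEGFP_spheroid and 39.4 ± 2.80 in SOX9-Halo_spheroid. The leading gene changed from condition to condition. Igfbp4 made up 75.5% ± 5.13 (SD, n = 3) of the summed RPKM in Halo-NLS, with Igfbp2 at 23.3% ± 4.53. Igfbp2 took 90.2% ± 2.87 in SOX9-mEGFP_budding and 69.2% ± 25.8 in SOX9-Halo_budding, where replicate 3 had more Igfbp4 (55.2%) than Igfbp2 (39.4%). In SOX9-mEGFP_spheroid, Igfbp3 led with 52.1% ± 3.18 ahead of Igfbp5 with 37.7% ± 3.50, in each of the 3 libraries. In SOX9-Halo_spheroid, Igfbp4 held 52.3% ± 3.38 and Igfbp5 46.1% ± 3.39, and in replicate 1 Igfbp5 was the larger of both (49.9% against 48.7%). These shares are a description, since they include Igfbp4, and carry no test.

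**Figure D2:**
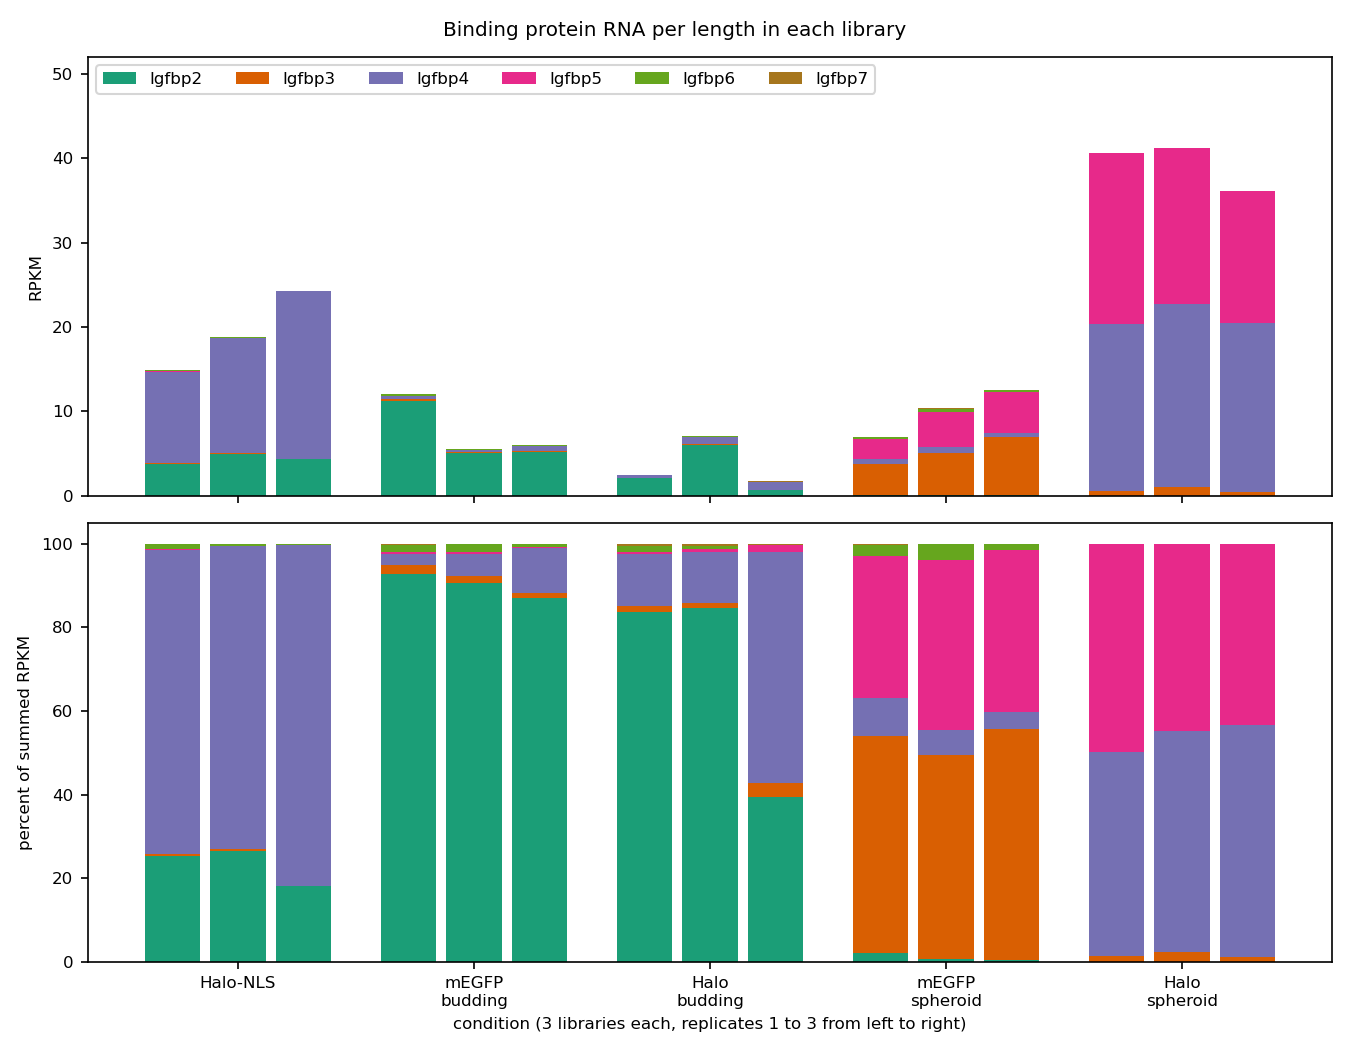
RNA of the 6 binding proteins per exon length in each library, as stacked RPKM (top) and as percent of their sum (bottom), for 3 libraries per condition. Igfbp4 leads in Halo-NLS, Igfbp2 in 5 of the 6 budding SOX9 libraries, Igfbp3 with Igfbp5 in SOX9-mEGFP_spheroid, and Igfbp4 with Igfbp5 in SOX9-Halo_spheroid.

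Igf1r, the receptor of IGF1 and IGF2, was low in the control. Its normalized counts were 26.1, 23.0 and 76.7 in Halo-NLS, 231, 217 and 421 in SOX9-mEGFP_budding, 125, 255 and 211 in SOX9-Halo_budding, 138, 129 and 253 in SOX9-mEGFP_spheroid and 181, 344 and 450 in SOX9-Halo_spheroid. Every SOX9 library lay above every control library, and the 4 SOX9 conditions overlapped with each other. Igf1r was 4.14-fold higher in SOX9-mEGFP_spheroid than in Halo-NLS (log2 fold change of 2.05, SE 0.51, edgeR adjusted p = 0.00414) and 7.76-fold higher in SOX9-Halo_spheroid (2.96, SE 0.52, edgeR adjusted p = 2.60e-04). The first of these calls was lost without Halo-NLS replicate 1 (adjusted p = 0.016), Halo-NLS replicate 2 (0.021) or SOX9-mEGFP_spheroid replicate 3 (0.023). In the budding organoids the log2 fold changes against Halo-NLS were 2.79 (SE 0.52) for SOX9-mEGFP and 2.23 (SE 0.51) for SOX9-Halo, given without a test. Without Halo-NLS replicate 3 these were 3.56 and 3.00, and those of the spheroids were 2.82 and 3.73. Igf1r was not called from budding to spheroid in either line, with log2 fold changes of -0.74 (95% interval of -1.67 to 0.18) and 0.73 (-0.20 to 1.65), nor between spheroids (0.91, -0.02 to 1.84).

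Insr, the receptor of insulin, had normalized counts of 728, 707 and 206 in Halo-NLS, 1562, 1132 and 1267 in SOX9-mEGFP_budding and 1109, 1647 and 1354 in SOX9-Halo_budding. In spheroids it was at 1052, 1373 and 1758 (SOX9-mEGFP) and 963, 966 and 1190 (SOX9-Halo). All 12 SOX9 libraries lay above the control libraries, of which replicate 3 was the lowest by far. Insr was called higher in SOX9-mEGFP_spheroid than in Halo-NLS (log2 fold change of 1.35, SE 0.37, edgeR adjusted p = 0.00711) but not in SOX9-Halo_spheroid (0.93, SE 0.36, edgeR adjusted p = 0.0465). Without Halo-NLS replicate 3, the log2 fold change in SOX9-mEGFP_spheroid was 0.96 (SE 0.25, adjusted p = 0.0079), below the threshold on its size. The call was also lost without SOX9-mEGFP_spheroid replicate 2 (1.34, adjusted p = 0.02) or 3 (1.13, adjusted p = 0.036). Against Halo-NLS, Insr had log2 fold changes of 1.27 (SE 0.36) in SOX9-mEGFP_budding and 1.32 (SE 0.36) in SOX9-Halo_budding, again without a test, and without Halo-NLS replicate 3 these were 0.88 and 0.93. It was not called from budding to spheroid (0.08 with a 95% interval of -0.62 to 0.78, and -0.40 with -1.10 to 0.30). Per exon length, Insr exceeded Igf1r 29.3-fold in Halo-NLS on average, though with a range of 3.86 to 44.2, and 3.79- to 15.3-fold over the SOX9 libraries.

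Over the comparisons, the calls of the tested members were counted beside those of all genes. Igfbp4 enters only the comparison between spheroids, and the other 5 tested members enter all 7. From budding to spheroid in the SOX9-mEGFP line, 2 were called higher (Igfbp5 and Igfbp3) and 1 lower (Igfbp2), beside 8.55% and 7.88% of all genes. In the SOX9-Halo line the same genes were called, beside 10.5% and 14.7% of all genes. Between SOX9-Halo_spheroid and SOX9-mEGFP_spheroid, 2 were called higher (Igfbp4 and Igfbp5) and 1 lower (Igfbp3), beside 3.59% and 9.58%. In SOX9-mEGFP_spheroid against Halo-NLS, 4 were called higher (Igfbp3, Igfbp5, Igf1r and Insr) and 1 lower (Igfbp2), beside 15.3% and 12.1%. In SOX9-Halo_spheroid against Halo-NLS, 3 were called higher (Igfbp3, Igfbp5 and Igf1r) and 1 lower (Igfbp2), beside 13.6% and 15.3%. For the difference between the lines in the change from budding to spheroid, edgeR called 0 of 5, with 2 higher at an unadjusted p under 0.05 (Igfbp5 and Igf1r) and 1 higher called by DESeq2 (Igfbp5), beside 1.81% of all genes called higher and 5.58% lower. Between SOX9-Halo_budding and SOX9-mEGFP_budding, edgeR called 0 of 5, with 1 lower at an unadjusted p under 0.05 (Igfbp2) and 0 called by DESeq2, beside 0.29% and 0.165% of all genes. Igfbp5 and Igfbp2 passed the filter only where they were high, and Igfbp3 was near its limit outside spheroids. The calls of these genes in spheroids against budding organoids and Halo-NLS therefore carry no weight here. These counts describe the members and are not read as a departure from the background. The comparisons share libraries and are not independent of each other.

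**Figure D3:**
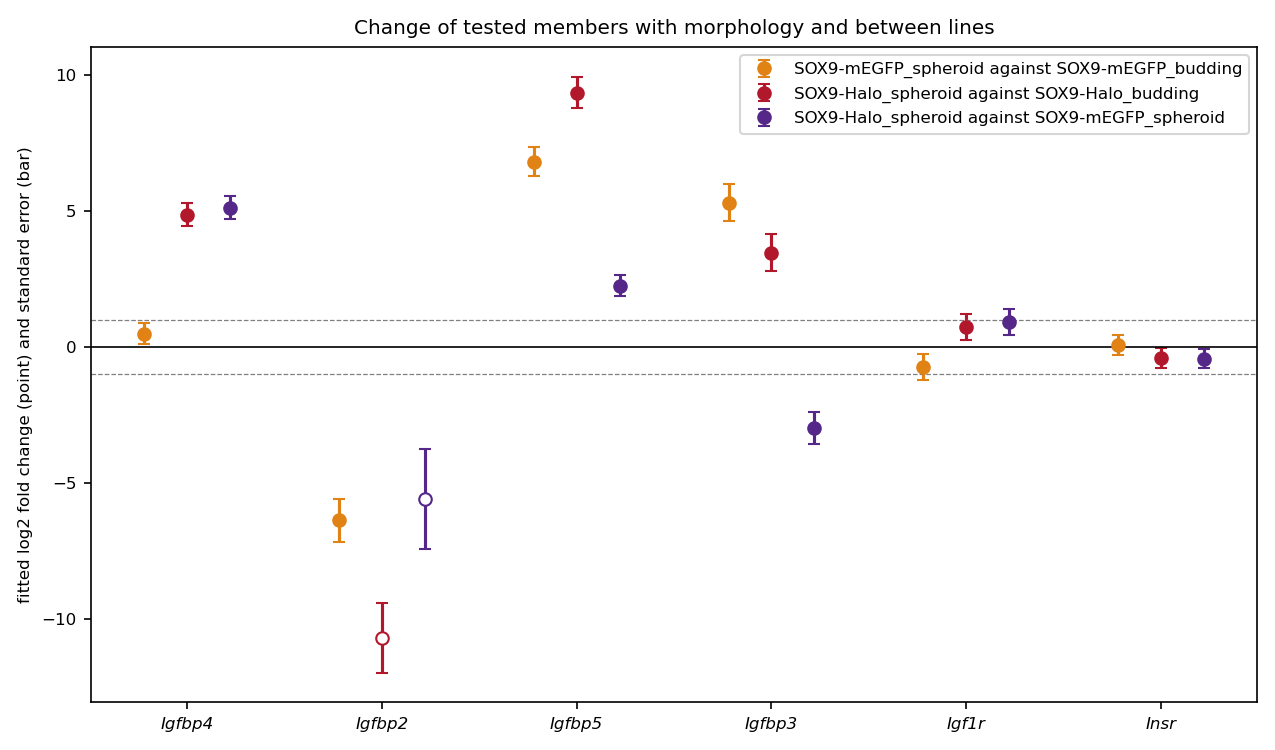
Fitted log2 fold changes (points) with standard errors (bars) of the 6 tested members from budding to spheroid in each line and between both kinds of spheroids, with dashed lines at -1 and 1. Open points mark values against a group without reads, which depend on the fit's prior. In both lines Igfbp5 and Igfbp3 are higher and Igfbp2 is lower in spheroids, and Igfbp4 is higher in SOX9-Halo spheroids than in SOX9-mEGFP spheroids (values of Igfbp4, Igfbp5, Igfbp3 and Igfbp2 from budding to spheroid carry no p).

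Over the 15 libraries, log2 CPM of the neighbours Igfbp2 and Igfbp5 ran against each other (Pearson r = -0.949, Spearman rho = -0.724), and those of Igfbp3 and Igfbp5 ran together (r = 0.777, rho = 0.721). Igfbp4 followed none of the other tested members closely, with r from -0.61 (Insr) to 0.33 (Igfbp5). The libraries of a condition share their line and culture, so these are descriptions over 5 conditions of 3 libraries.

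Among 11048 other genes whose normalized counts averaged at least 100, the 5 most like each member by Pearson r over the 15 libraries were named. For Igfbp4 they were Mri1 (r = 0.947), Tbcb, Polr2c, Farsa and Ada (0.922), and only Ada was also among the 5 highest by Spearman rho. For Igfbp5 they were Tmem40 (r = 0.990), Rab11fip5, Cxcl16, Folr1 and Anxa6 (0.988), and for Igfbp3 they were Lrrc66 (r = 0.974), Arhgef3, Rhbdd1, C1qtnf6 and Tnfrsf23 (0.958). For Igfbp2 they were Hpd (r = 0.989), Gm1123, Reg4, Cd177 and Dao (0.978). For Igf1r they were Evl (r = 0.928), Igsf11, Fzd7, Abtb2 and Smarca2 (0.886), and for Insr Gsk3b (r = 0.975), Foxj3, Unc13b, Ino80 and Marf1 (0.960).

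The rest of the IGF pathway was covered by a list of 50 genes, of which 37 were tested. The ligand genes were at or near 0. Igf1 had at most 16.3 normalized counts (in Halo-NLS replicate 3), Igf2 at most 5.8, Ins1 at most 5.0 and Ins2 none, and none of the 4 was tested. The libraries that held the binding proteins thus held hardly any RNA of their ligands.

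Among the other receptors and binding proteins, 3 of 5 were tested. Igf2r, which takes up IGF2 for degradation and carries lysosomal enzymes, had normalized counts of 3233, 5847 and 1544 in Halo-NLS, 6068, 4562 and 4766 in SOX9-mEGFP_budding, 2549, 6907 and 4479 in SOX9-Halo_budding, 7784, 10720 and 15271 in SOX9-mEGFP_spheroid and 16224, 16868 and 21984 in SOX9-Halo_spheroid. Igf2r was called higher in SOX9-Halo_spheroid against budding organoids (log2 fold change of 1.98, SE 0.43, edgeR adjusted p = 0.00164) and against Halo-NLS (2.37, SE 0.44, edgeR adjusted p = 3.95e-04), and in SOX9-mEGFP_spheroid against Halo-NLS (1.67, SE 0.43, edgeR adjusted p = 0.00508). Igfals, the subunit that stabilizes IGF complexes in blood, had 18.9 to 24.8 normalized counts in Halo-NLS and at most 3.0 in spheroids, and with a mean below 10 it could not be called. Insrr (at most 16.0) and Igfbpl1 (at most 8.6) were low throughout.

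Of the 5 binding protein proteases and their inhibitors, 2 were tested. Pappa2, a protease that cuts IGFBP3 and IGFBP5, was at 32.7 to 162 normalized counts in Halo-NLS and 40.0 to 428 in the budding SOX9 libraries, and at most 1.0 in any spheroid library. In the SOX9-mEGFP line it had 2 reads in spheroids and 400 in budding organoids, a ratio of the pooled counts of 207 (95% counting interval of 56.9 to 1714). In the SOX9-Halo line it had 1 read and 639 reads, a ratio of 582 (104 to 23006). Without SOX9-Halo_budding replicate 2, which held most of these reads, the ratio was 263 (46.6 to 10427). The intervals are exact (Clopper-Pearson) and cover counting error only. As Pappa2 passed the filter only through Halo-NLS and the budding libraries, where it was high, its falls carry no p. Igfbp5 and Igfbp3 were highest in the spheroid libraries, in which Pappa2 was nearly absent. A link between these levels was not tested, and RNA levels do not show cutting of the proteins. Pappa, which cuts IGFBP4, had at most 13.8 normalized counts, again in Halo-NLS replicate 3, and Htra1 at most 1.9. Stc2, an inhibitor of both PAPP-A proteases, had normalized counts of 8657, 8618 and 9452 in SOX9-mEGFP_spheroid and 5026, 3128 and 2510 in SOX9-Halo_spheroid. It was called lower in the latter (log2 fold change of -1.33, SE 0.34, edgeR adjusted p = 0.00911) and higher in SOX9-mEGFP_spheroid than in Halo-NLS (1.35, SE 0.34, edgeR adjusted p = 0.00439). Its relative Stc1 had at most 14.0.

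**Figure D4:**
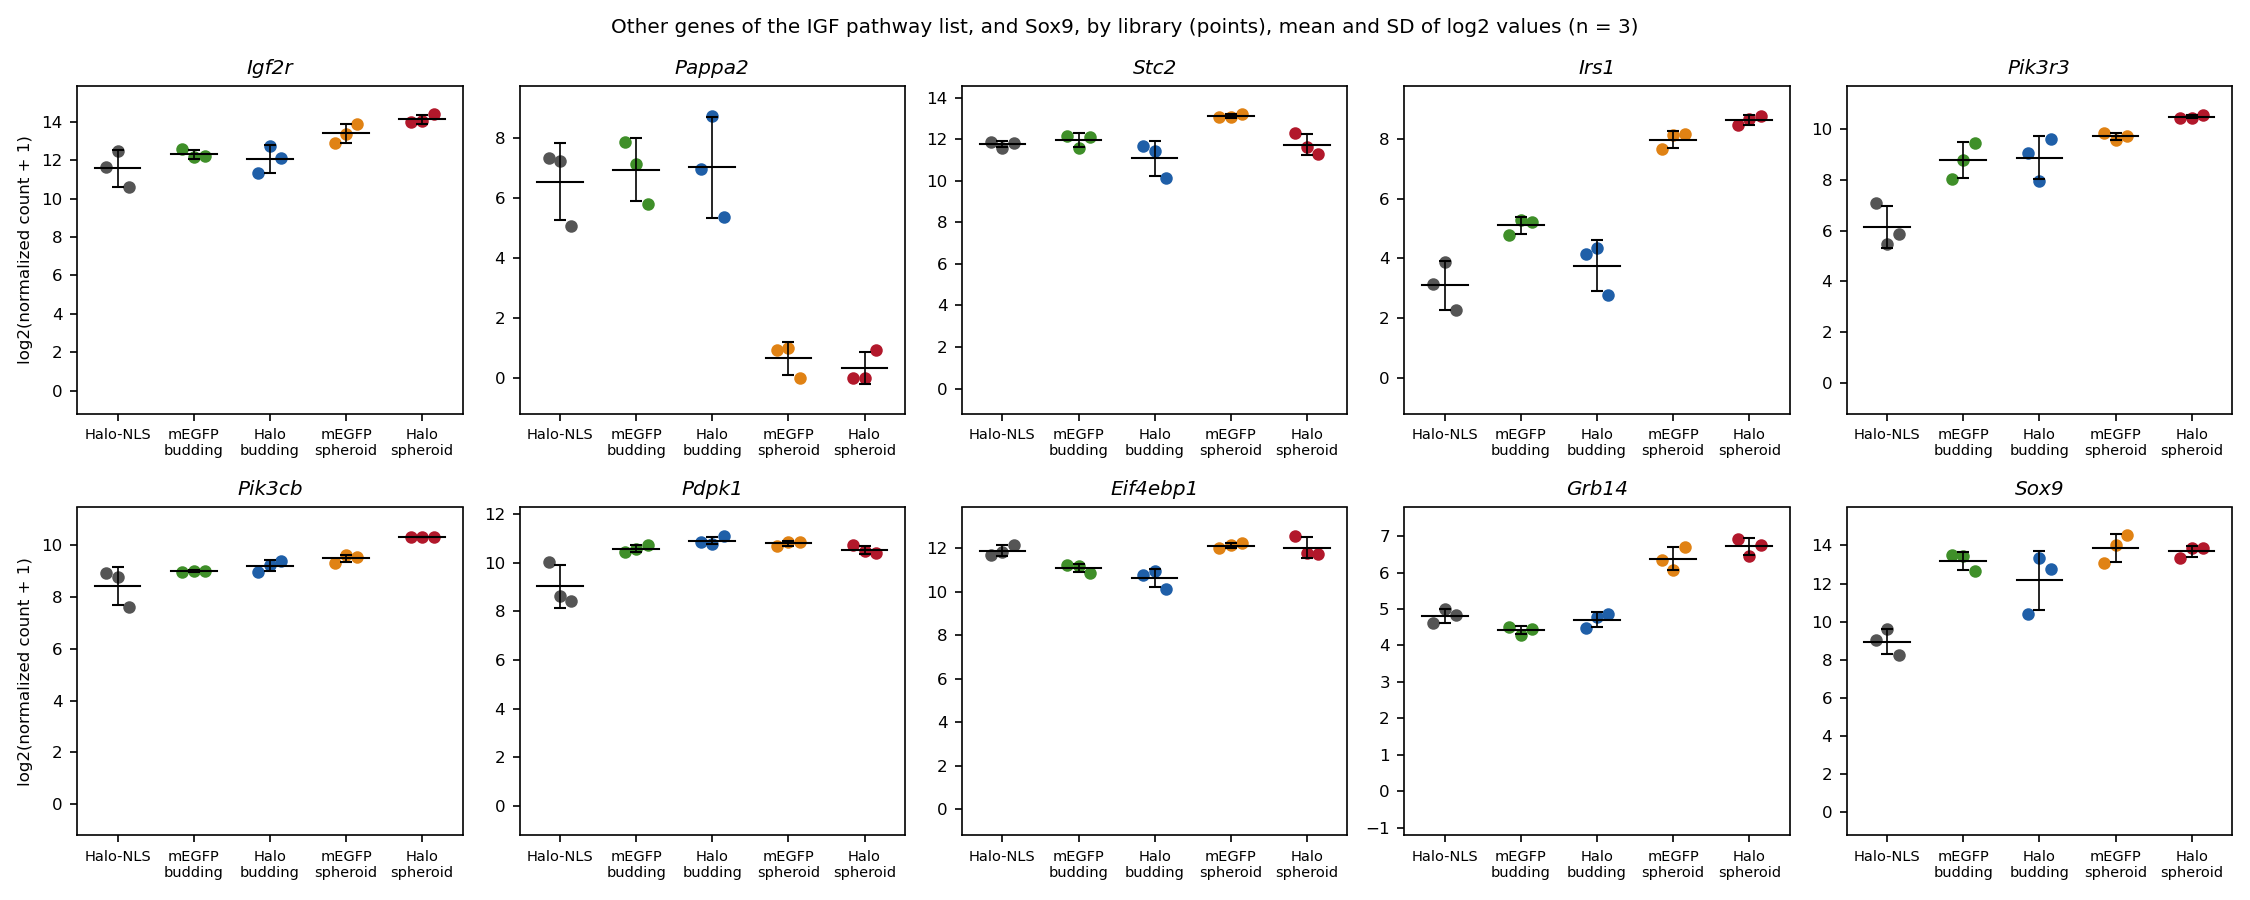
Normalized counts of 9 other genes of the IGF pathway list and of Sox9 in each library on a log2(count + 1) axis, by condition, with the mean and SD of the log2 values (n = 3 per condition); the scale differs between panels. Pappa2 is at or near 0 and Irs1 and Grb14 are raised in both kinds of spheroids, and Stc2 is highest in SOX9-mEGFP_spheroid.

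Downstream of the receptors, few genes were called. Irs1, an adaptor that docks at both receptors, had 3.8 to 38.4 normalized counts in Halo-NLS and budding libraries, 201, 278 and 288 in SOX9-mEGFP_spheroid and 352, 405 and 438 in SOX9-Halo_spheroid. It rose from budding to spheroid by 2.90 on the log2 scale in the SOX9-mEGFP line (SE 0.38, edgeR adjusted p = 4.04e-05) and by 4.81 in the SOX9-Halo line (SE 0.42, edgeR adjusted p = 3.39e-07). Irs1 was the only one of 6 tested adaptors called in either line from budding to spheroid. Grb14, an adaptor that inhibits the insulin receptor, rose by 2.02 (SE 0.27) and 2.05 (SE 0.26), from means of 20.5 and 25.3 to means of 83.6 and 105 normalized counts. Among 14 tested genes of the PI3K, AKT and mTOR list, Pik3r3, a regulatory subunit of PI3K, was called higher against Halo-NLS in SOX9-mEGFP_spheroid (3.43, SE 0.49) and SOX9-Halo_spheroid (4.19, SE 0.50). The kinase Pdpk1 was called higher in the same comparisons (1.59, SE 0.32, and 1.32, SE 0.32). The catalytic subunit Pik3cb was called higher in SOX9-Halo_spheroid against budding organoids (1.12, SE 0.27) and Halo-NLS (1.80, SE 0.27). From budding to spheroid in the SOX9-Halo line, 1 of the 14 was called lower. Pik3r1, another regulatory subunit, had 2294, 1573 and 2873 normalized counts in SOX9-Halo_budding and 322, 278 and 316 in SOX9-Halo_spheroid. It had 1188, 436 and 375 in Halo-NLS, 1351, 1438 and 3134 in SOX9-mEGFP_budding and 736, 688 and 942 in SOX9-mEGFP_spheroid. The translation repressor Eif4ebp1 was called higher from budding to spheroid in the SOX9-mEGFP line (1.02, SE 0.26) and the SOX9-Halo line (1.41, SE 0.26), from means of 2214 and 1630 to means of 4499 and 4340 normalized counts, with 3843 in Halo-NLS.

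Over the 37 tested genes of the list, 1 was called higher in SOX9-mEGFP_budding against Halo-NLS (Pik3r3), and 2 higher and 1 lower in SOX9-Halo_budding (Pik3r3, Pdpk1 and, lower, Eif4ebp1). Beside these, 1.99% of all genes were called higher and 0.763% lower in SOX9-mEGFP_budding, and 2.49% and 1.26% in SOX9-Halo_budding. Of the 37 genes, 3 were called higher and 1 lower from budding to spheroid in the SOX9-mEGFP line, beside 8.55% and 7.88% of all genes. The SOX9-Halo line had 5 called higher and 2 called lower, beside 10.5% and 14.7%. The median log2 fold changes from budding to spheroid in these lines were 0.13 and 0.17, beside -0.04 and -0.08 over all genes tested. Against Halo-NLS, 8 were called higher and 1 lower in SOX9-mEGFP_spheroid (median of 0.37, beside 0.03 over all genes) and 8 higher and 2 lower in SOX9-Halo_spheroid (median of 0.18, beside -0.01). Of all genes, 15.3% were called higher and 12.1% lower in SOX9-mEGFP_spheroid, and 13.6% and 15.3% in SOX9-Halo_spheroid. The calls of Pappa2 are among those lower in spheroids against budding organoids and Halo-NLS and carry no weight. Between spheroids, edgeR called 0 higher and 1 lower, with 5 higher and 4 lower at an unadjusted p under 0.05 and 0 higher and 2 lower called by DESeq2. The shares of all genes called by edgeR were 3.59% and 9.58%. For the difference between the lines, edgeR called 0, with 2 higher and 1 lower at an unadjusted p under 0.05 and 1 higher called by DESeq2, beside 1.81% and 5.58% of all genes called by edgeR. Between both budding lines edgeR called 0, with 2 lower at an unadjusted p under 0.05 and 0 called by DESeq2, beside 0.29% and 0.165% of all genes called by edgeR. These counts describe the list and are not read as a departure from the background.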

How the data were processed

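Poly-A RNA of 15 libraries, 3 for each of 5 conditions taken from the labels, was analysed from read counts. The counts were deposited by the authors, who trimmed reads with cutadapt 4.5, aligned them with STAR to mm39, removed multiple alignments and used HTSeq 2.0.2 in union mode, without strand, to count them on genes. These counts are whole numbers and not normalized. Reads on no gene (1.83% to 6.09% of reads) and on more than 1 gene (9.65% to 13.6%) were left out. A table of normalized values and 7 tables of the authors' comparisons (fold changes and p-values) were not used. No column of values per library was left over.

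Counts were analysed with edgeR 4.0.16 in R 4.3.3. Python 3.11.15 with pandas 2.3.3 served for tables and matplotlib 3.10.9 for figures. Of 78298 genes, filterByExpr by condition left 17560, which were scaled with TMM and fitted with 1 coefficient per condition. Standard errors were obtained by dividing the size of the log2 fold change by the root of its F statistic. The code recovered fold changes known from simulated counts. Correlations used log2 CPM with a prior count of 2. RPKM used the length of merged exons in GENCODE M39, which holds 78168 of the gene identifiers. Windows before genes were read from GRCm39.

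The members, the pathway and marker lists and the comparisons were chosen with earlier results of these data known. The result of 1 marker list is not reported here. No member was tested in budding SOX9 organoids against Halo-NLS, and Igfbp4 was tested between spheroids alone. Igfbp5, Igfbp3, Igfbp2 and Pappa2 carry no p in spheroids against budding organoids or Halo-NLS. Named are all members, the ligands, other receptors, binding proteins and proteases with their inhibitors, other pathway genes called in at least 2 of the 7 tested comparisons, and the 5 genes most like each member with a mean of at least 100. Pik3r1, called in 1 of the 7, is named beside them. Alternatives were RLE scaling, library sizes alone, no filter, DESeq2 1.42.0, a log2 fold change of at least 2, only the libraries compared, a replicate block and leaving out each library. The ratios of Igfbp2 and Pappa2 with a library left out were added after seeing the data.

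The labels number the replicates. Between SOX9-Halo_budding and SOX9-Halo_spheroid, deviations from the condition mean correlated at r = 0.403, 0.234 and 0.344 in same-numbered libraries and at -0.170 on average otherwise (11054 genes), so by this correlation alone the numbers were taken to pair these libraries. A blocked fit of the 6 libraries of this line was chosen after seeing the data. In the other 9 pairs of conditions they were not taken to pair.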

Additional observations from a re-analysis of the deposited data

How the results depend on the processing

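Of 503 fold changes of members under an alternative, 483 kept their direction and their side of the thresholds. The 503 leave out budding SOX9 organoids against Halo-NLS, and Igfbp4 other than between spheroids. They include the fold changes of Igfbp5, Igfbp3 and Igfbp2 in spheroids against budding organoids and Halo-NLS, which carry no p. All of those kept both, which raises the share that did. For the difference between the lines, 1 member was called higher in place of 0 without the low-count filter and with DESeq2 (Igfbp5), and 2 members were called lower between spheroids in place of 1 under the same alternatives (Igfbp3 and Igfbp2). Leaving out 1 library at a time, the number called lower between SOX9-Halo_spheroid and SOX9-mEGFP_spheroid ran from 0 to 1 and the number called higher in SOX9-mEGFP_spheroid against Halo-NLS from 2 to 4. The latter was 2 with only the libraries compared, where Igf1r had an adjusted p of 0.013 and Insr of 0.043. No other count of called members moved by over 1.5 times. The direction turned for values near 0 when 1 library was left out. For Igfbp5 in SOX9-Halo_budding against SOX9-mEGFP_budding, the log2 fold change of -0.30 ran from -0.73 to 0.43 and was 0.0095 without SOX9-Halo_budding replicate 1. For Insr in the same comparison, 0.05 ran from -0.10 to 0.19 and was -0.02 without SOX9-mEGFP_budding replicate 2. For Insr from budding to spheroid in the SOX9-mEGFP line, 0.08 ran from -0.16 to 0.22 and was -0.05 without SOX9-mEGFP_budding replicate 2. The cause was not tested. With a replicate block in the fit of all libraries, the members called from budding to spheroid in the SOX9-Halo line stayed at 2 higher and 1 lower, and so they did with the block within this line (log2 fold changes of 9.34 for Igfbp5 and 3.41 for Igfbp3). The block changed no other call of a member. Over all genes, the calls higher and lower were 350 and 134 in SOX9-mEGFP_budding against Halo-NLS, but 74 and 39 with only the libraries compared, 926 and 271 with DESeq2 and 1730 and 261 without the low-count filter. In SOX9-Halo_budding against Halo-NLS they were 438 and 221, but 20 and 2, 1176 and 426, and 1933 and 424 under the same alternatives, and with library sizes alone 619 were called higher in the former and 1067 higher and 109 lower in the latter. Between both budding lines they were 51 and 29, but 23 and 3, 92 and 104, and 116 and 164. DESeq2 called 488 genes higher in place of 318 for the difference between the lines. Depth limits Igfbp6 and Igfbp7, which had too few counts to be tested.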
